A study of Rattus norvegicus with 12 samples.

Results

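Serpins, kallikreins and the plasminogen activation system form a large set of proteases and protease inhibitors measured here in the rat ventral prostate, the androgen-dependent lobe that secretes much of the fluid of the gland. Members were every probe set whose single annotated gene symbol began with Serpin or Klk or was Plau, Plaur, Plat or Plg, with the probe set of highest mean level over the 12 arrays taken for each gene. The rule found 59 genes of 14506 measured: 36 serpins, 19 kallikreins and the 4 genes of the plasminogen system. The rule reads gene symbols and mean levels, it was set with earlier results of these data known, and no gene was left out for a low level.

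All animals were male Wistar rats 90 days old at treatment, and the ventral prostate was taken 3 days later, with 3 arrays in each of 4 groups. The castrated group had the testes removed through the scrotum under anaesthesia with ketamine at 150 mg/kg and with xylazine at 10 mg/kg. The labels do not say whether these animals also received vehicle. The estradiol group was intact and received 17β-estradiol, an oestrogen, as 1 dose of 25 mg/kg in corn oil. The combined group had both procedures. The control group was intact and received the corn oil vehicle alone, and surgery without castration is not mentioned for it. The design names 48 rats, and no label says whether an array holds 1 animal or a pool. P-values therefore measure only how far these samples differ, which may be technical, and the number of arrays limits the precision.

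Plasminogen is an inactive protease of plasma. It is cut to plasmin by urokinase (Plau), which acts on cell surfaces where its receptor (Plaur) holds it, and by tissue-type activator (Plat). Serpins are a protein family that mostly trap serine proteases in a complex that both partners do not survive; some, such as maspin (Serpinb5) and the collagen chaperone Serpinh1, do not act as inhibitors. Kallikreins are secreted serine proteases. In the rat the Klk1 subfamily has been duplicated many times into near-identical neighbours, several of which are secretory products of salivary gland and prostate.

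Values were log2 expression levels, on which a step of 1 is a doubling. They were tested with limma over all 14506 genes, with 1 estimate of the spread from all 12 arrays and Benjamini-Hochberg adjustment, and a gene passed at an adjusted p under 0.05. Of the 59 genes, 45 had a mean level at or below that of the median gene (6.17) and 14 lay above it. Those above were all 4 plasminogen genes, 7 of 36 serpins and 3 of 19 kallikreins (Klk1, Klk1c8 and Klk1c9).

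Estradiol arrays 1 and 2 stood apart from the other 10. Their SD over all probe sets was 1.93 and 2.01, against 2.24 to 2.30 elsewhere, and the dimmest 10% of genes averaged 3.41 and 3.34 on them, against 2.69 to 2.84. The dim serpins and kallikreins moved in the same way: their mean was 4.64 and 4.52 on these arrays, against 4.10 to 4.26 on the others. Of the 45 dim genes, 16 were higher on both arrays than on every other array and 0 were lower on both. Of the 14 brighter genes, 0 were higher and 3 were lower. The same counts were not made over all genes, so they do not show whether the members differed from other genes of like level. Estradiol array 3 differed in another way, with 9.46 for Semg1 and 8.47 for Msmb, both secreted by other male accessory glands or lobes, against at most 3.43 and 4.18 on any other array. The part of these arrays in the estradiol results was not tested. Values without estradiol arrays 1 and 2 leave estradiol array 3 alone, with its spread taken from the other groups.

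**Figure D1:**
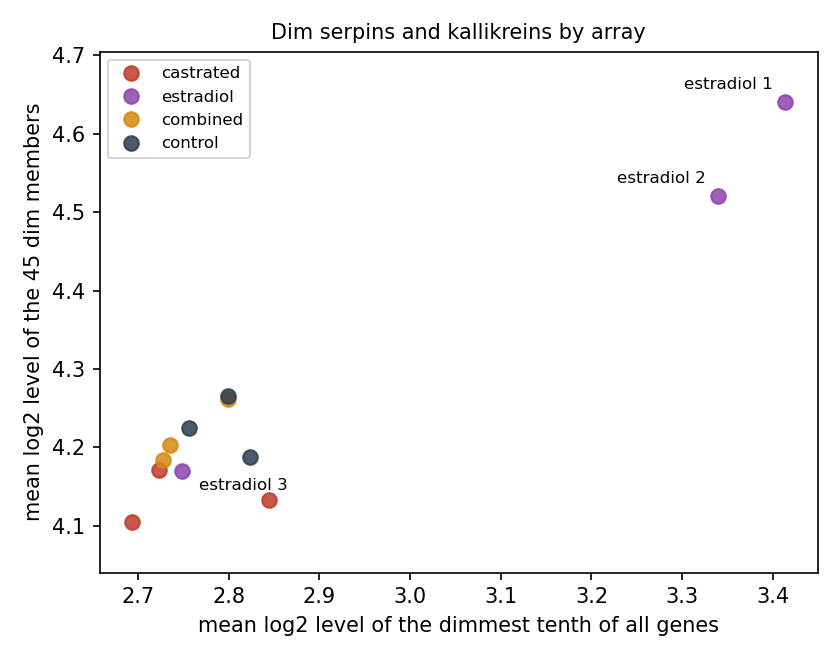
Mean log2 level of the 45 dim serpins, kallikreins and related genes (vertical axis) against the mean log2 level of the dimmest 10% of all genes (horizontal axis), 1 point per array, coloured by group. Estradiol arrays 1 and 2 lie apart at 4.64 and 4.52, above all other arrays at 4.10 to 4.26, among which estradiol array 3 stands.

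Few of these genes passed. Against control, 4 of 59 passed in castrated animals (2 rose, 2 fell), where 5.54% of all genes passed (3.17% rose, 2.36% fell). In estradiol-treated animals 3 passed (2 rose, 1 fell), against 7.99% of all genes (2.51% rose, 5.48% fell). In combined animals 3 passed (2 rose, 1 fell), against 4.32% of all genes (2.12% rose, 2.21% fell). These shares are near the background of each comparison. In all, 6 genes passed somewhere and 53 nowhere: Serpinb6a passed in all 3 treatments, Plau and Klk1c12 in castrated and combined animals, and Klk1b3, Klk4 and Serpinf1 in 1 treatment each. In the F test for any group difference 3 passed (Plau, Serpinb6a and Klk1c12), where 5.47% of all genes passed.

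Single arrays moved these counts. In castrated animals 2 genes passed without castrated array 3, control array 2 or control array 3 (3.09%, 2.49% and 2.75% of all genes), and 7 without estradiol array 1 (12.3% of all genes). In combined animals 5 passed without estradiol array 1 (10.2% of all genes). In estradiol-treated animals 0 passed without control array 1, 2 or 3 (2.98%, 2.69% and 2.98% of all genes), 1 without castrated array 1, combined array 3 or estradiol array 2 (5.70%, 5.42% and 6.82%), and 5 without estradiol array 1 (8.71%). Without estradiol array 3, which leaves the 2 arrays that stood apart, 20 members passed for estradiol and 28 in the F test, against 36.7% and 34.1% of all genes. The F test passed 0 members without control array 2 or 3 (1.59% and 1.81% of all genes).

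The arrays of castrated and control animals did not overlap for 30.5% of the 59 genes, against 32.5% of all genes. For estradiol these shares were 20.3% of members and 27.4% of all genes, and for the combined treatment 32.2% and 36.9%. The median log2 difference from control over the 59 genes was -0.02 in castrated, 0.23 in estradiol-treated and 0.05 in combined animals, beside 0.01, 0.07 and 0.04 over all genes. The estradiol median of the members was 0.01 after quantile normalization, a scaling that makes all arrays share 1 distribution, and -0.03 without estradiol arrays 1 and 2. The 3 treatments share the same control arrays, so agreement between them is not independent.

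**Figure D2:**
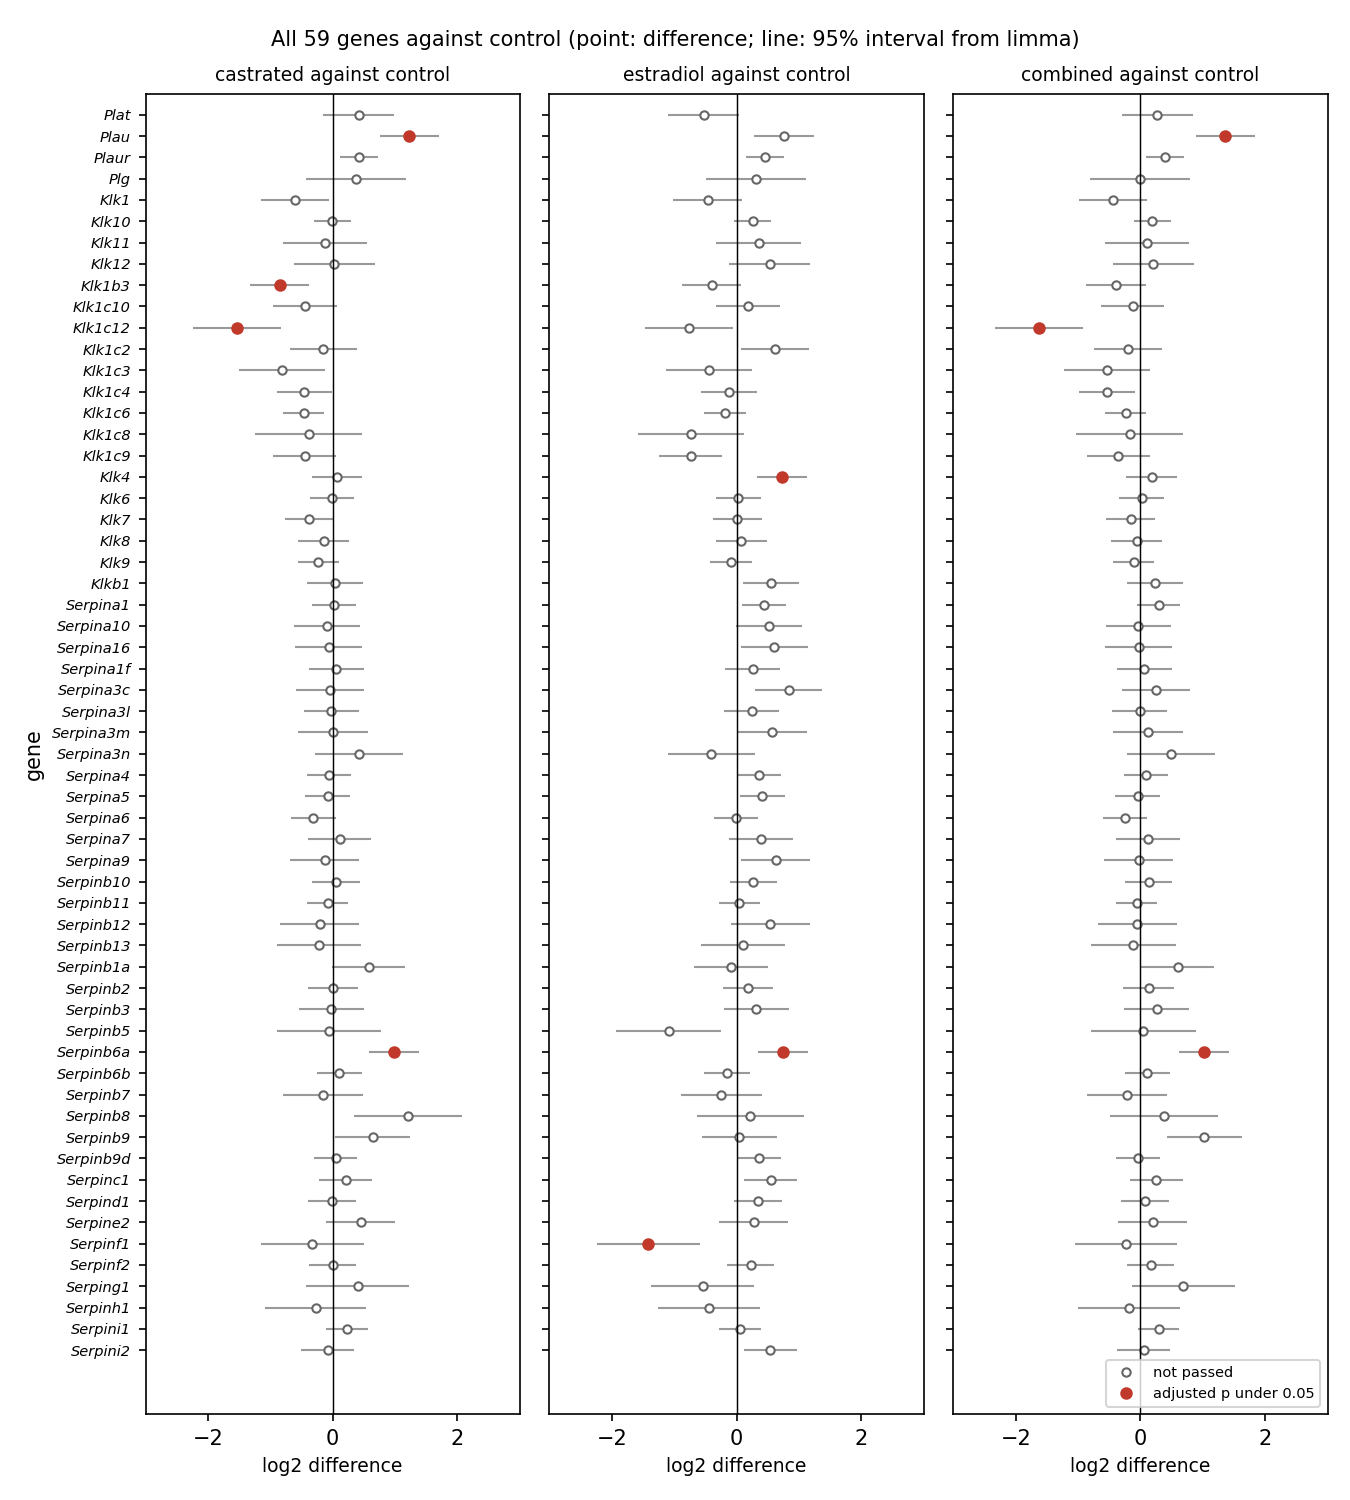
Log2 difference from control for all 59 genes (rows, in 3 families) in castrated, estradiol-treated and combined animals (panels), with 95% intervals from limma as lines and filled points for an adjusted p under 0.05. The filled points are 4, 3 and 3, and Serpinb6a is filled in every panel.

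Plau, which encodes the protease urokinase, rose in castrated and in combined animals. Its log2 level was 7.67, 7.39 and 7.53 on the castrated arrays, 6.63, 7.19 and 7.34 on the estradiol arrays, 7.85, 7.32 and 7.80 on the combined arrays, and 6.64, 6.24 and 6.01 on the control arrays. All castrated and all combined arrays lay above all controls, while estradiol array 1 lay just below the highest control. The log2 difference was 1.23 ± 0.22 (SE) for castrated against control, a 2.35-fold rise (adjusted p = 0.00513), and 1.36 ± 0.22 for combined against control, a 2.57-fold rise (adjusted p = 0.00293). Both passed under all 21 alternative settings, with differences of 1.09 to 1.40 and 1.22 to 1.53.

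For estradiol against control the difference in Plau was 0.76 ± 0.22 with an adjusted p of 0.0530, which missed the threshold. Without estradiol array 1 it was 0.97 (adjusted p = 0.0114), and without estradiol arrays 1 and 2, which leaves 1 estradiol array whose spread is taken from the other groups, 1.04 (adjusted p = 0.0392). Combined and castrated animals differed in Plau by 0.13, with a 95% interval from -0.35 to 0.61.

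The promoter of Plau is shown because it sits at the start of the gene with the largest rise that held under every setting. The 250 bases before the start of Plau (RefSeq, build GRCr8, chr15:3511988-3512237, minus strand) read as follows, with the TATA-like letters TATTAAA in capitals.
Plau: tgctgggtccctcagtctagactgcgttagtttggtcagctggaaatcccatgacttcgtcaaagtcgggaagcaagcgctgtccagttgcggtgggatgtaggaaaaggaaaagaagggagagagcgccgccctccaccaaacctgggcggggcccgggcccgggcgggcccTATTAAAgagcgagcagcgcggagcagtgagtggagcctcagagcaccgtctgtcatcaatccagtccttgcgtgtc

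The letters TATTAAA, searched on both strands of 250 bases, occur in 3.63% of 33469 RefSeq rat promoters. They occur in 2 of the 48 members with a promoter in that table (Plau and Serpinb13). A member counted once if any of its promoters held the letters, so its count and the share of promoters have unlike units. The match is a description of the sequence.

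Plaur, the urokinase receptor, was higher on every treated array than on every control array. Its log2 level was 6.80, 6.98 and 6.80 on castrated arrays, 7.07, 6.84 and 6.78 on estradiol arrays, 6.83, 6.93 and 6.73 on combined arrays, and 6.34, 6.52 and 6.45 on control arrays. The differences were small, at 0.42 ± 0.14 (castrated, adjusted p = 0.114), 0.46 ± 0.14 (estradiol, adjusted p = 0.0610) and 0.39 ± 0.14 (combined, adjusted p = 0.164), and missed the threshold. Without estradiol arrays 1 and 2, whose spread enters every comparison, Plaur passed in castrated (adjusted p = 0.0167) and combined animals (adjusted p = 0.0254). Leaving out estradiol array 1 alone gave adjusted p = 0.0297 and 0.0449 for the same comparisons. For estradiol, Plaur differed by 0.52 without estradiol array 3 (adjusted p = 0.0144) and by 0.34 without estradiol arrays 1 and 2 (adjusted p = 0.233).

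Plat, the tissue-type activator, was at 6.996, 6.59 and 7.04 on castrated arrays, 5.92, 5.51 and 6.35 on estradiol arrays, 6.93, 6.21 and 7.04 on combined arrays, and 6.84, 6.34 and 6.18 on control arrays. The estradiol arrays all lay below the castrated arrays, with a difference of -0.95 (95% interval -1.52 to -0.38, adjusted p = 0.143), which missed the threshold. Against control the estradiol difference of Plat was -0.53, and -0.11 without estradiol arrays 1 and 2. Plg itself, made chiefly by liver, ranged from 5.70 to 7.59 on castrated arrays, 6.08 to 6.73 on estradiol arrays, 6.005 to 6.27 on combined arrays and 5.77 to 6.58 on control arrays. The groups overlapped, and its castrated array 1 was the highest of all 12.

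**Figure D3:**
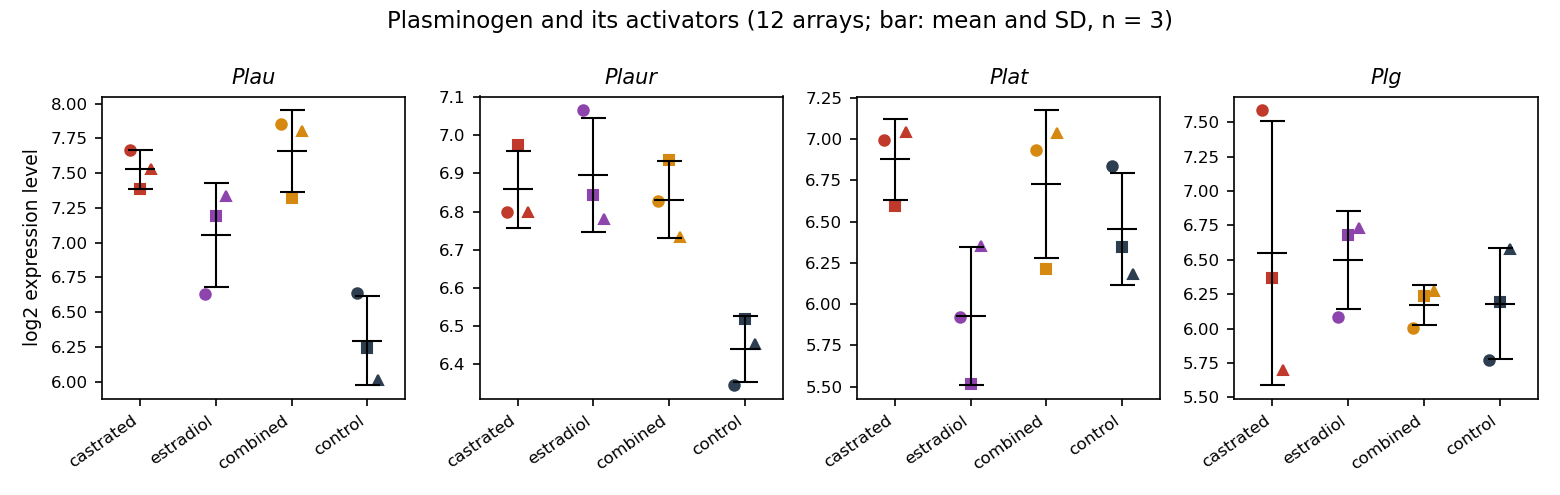
Log2 level of Plau, Plaur, Plat and Plg (panels, each with its own vertical scale) by group, 1 point per array with circle, square and triangle for arrays 1, 2 and 3, and the mean and SD of 3 arrays as bars. Castrated and combined arrays lie above all controls in Plau and Plaur, and groups overlap in Plg.

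Serpinb6a, an intracellular inhibitor whose human counterpart SERPINB6 blocks cathepsin G, rose under all 3 treatments. Its log2 level was 8.86, 8.55 and 8.71 on castrated arrays, 8.84, 8.08 and 8.49 on estradiol arrays, 8.63, 8.70 and 8.90 on combined arrays, and 7.63, 7.81 and 7.73 on control arrays. Every treated array lay above every control. The differences were 0.99 ± 0.19 in castrated animals (1.98-fold, adjusted p = 0.00696), 0.75 ± 0.19 in estradiol-treated animals (1.68-fold, adjusted p = 0.0283) and 1.02 ± 0.19 in combined animals (2.03-fold, adjusted p = 0.00578).

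The castrated and combined rises of Serpinb6a passed under all 21 alternatives, and the estradiol rise under 16 of 21. The estradiol call was lost without control array 1, 2 or 3 (adjusted p = 0.107, 0.0808 and 0.0895), with the arrays of those 2 groups alone (0.172) and with array weights (0.0837). Without estradiol arrays 1 and 2 it was 0.77 (adjusted p = 0.0231). The interaction, the estradiol effect in castrated minus that in intact animals, was -0.71 (95% interval -1.28 to -0.15, adjusted p = 0.246).

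Of the 14 intracellular clade B serpins only Serpinb6a passed. In castrated animals 8 of the 14 were above the control mean and 6 below (median difference 0.03), in estradiol-treated animals 10 and 4 (median 0.14, and 0.04 without estradiol arrays 1 and 2), and in combined animals 9 and 5 (median 0.12). Serpinb9, the inhibitor of granzyme B, was at 6.43, 6.38 and 6.82 on castrated arrays, 5.40, 5.90 and 6.54 on estradiol arrays, 7.10, 6.51 and 7.16 on combined arrays, and 6.24, 5.54 and 5.93 on control arrays. Its combined difference was 1.02 ± 0.28 with an adjusted p of 0.0583. That result passed under 8 of 21 alternatives, among them without combined array 2 (1.23, adjusted p = 0.0484), without estradiol array 1 (adjusted p = 0.0138), without estradiol array 3 (0.0227) and without estradiol arrays 1 and 2 (0.00770).

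Serpinb8 was at 7.20 on castrated array 1, against 5.05 and 5.52 on castrated arrays 2 and 3, 4.69 to 5.11 on estradiol arrays, 4.80 to 5.29 on combined arrays and 4.47 to 4.85 on control arrays. The castrated difference of 1.21 ± 0.40 (adjusted p = 0.112) therefore rested largely on 1 array: it was 0.56 without castrated array 1 (adjusted p = 0.260) and 1.64 without castrated array 2 (adjusted p = 0.0328). Serpinb1a, an inhibitor of leukocyte elastase, averaged 7.90 ± 0.42 in castrated, 7.24 ± 0.53 in estradiol-treated, 7.92 ± 0.19 in combined and 7.32 ± 0.32 in control animals (SD, n = 3). Its combined difference of 0.60 had an adjusted p of 0.329.

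Serpinb5 (maspin), a non-inhibitory serpin of epithelial cells and the serpin with the highest mean level, was at 9.29, 9.02 and 9.42 on castrated arrays, 6.96, 8.58 and 9.12 on estradiol arrays, 9.44, 9.31 and 9.30 on combined arrays, and 9.02, 9.42 and 9.48 on control arrays. The lowest values were those of estradiol arrays 1 and 2. All combined arrays lay above all estradiol arrays, with a difference of 1.13 that did not pass, and the other pairs of groups overlapped. The estradiol difference was -1.09 ± 0.39 (adjusted p = 0.0922) over all arrays and -0.19 without estradiol arrays 1 and 2.

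Serpinf1, which encodes pigment epithelium-derived factor, a secreted serpin that restrains vessel growth, fell in estradiol-treated animals. It was at 7.64, 6.32 and 7.61 on estradiol arrays, and 9.02, 8.34 and 8.45 on control arrays, with no overlap. Castrated arrays were at 8.49, 7.58 and 8.76 and combined arrays at 8.51, 7.85 and 8.75, and both sets overlapped the controls. The estradiol difference was -1.42 ± 0.38 (adjusted p = 0.0393), a 2.67-fold fall, while the castrated difference was -0.32 and the combined one -0.23.

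The fall of Serpinf1 passed under 11 of 21 alternatives. It was -0.995 without estradiol arrays 1 and 2 (adjusted p = 0.258), -0.98 without estradiol array 2 (0.107), and missed the threshold without control array 1, 2 or 3 (0.150, 0.0882 and 0.0940), without castrated array 1 (0.0559) and without combined array 1 or 3 (0.0598 and 0.0529). It also missed with quantile normalization (0.0794) and with the estradiol and control arrays alone (0.114). The interaction was 1.51 (95% interval 0.35 to 2.67, adjusted p = 0.233). The mean of 13 fibroblast markers was 7.13 to 7.52 on estradiol arrays and 7.53 to 7.88 on control arrays, and 0 of the 13 passed. The mean of 14 endothelial markers was 5.69 to 5.84 on estradiol arrays and 5.99 to 6.25 on control arrays, with 3 that fell, and that of 11 smooth muscle markers was 7.84 to 8.26 and 8.48 to 8.71, with 1 that fell. None of these markers passed for estradiol without estradiol arrays 1 and 2. The part of these cell types in the fall was not tested.

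Serping1, the inhibitor of complement C1, was at 9.08, 7.91 and 9.49 on castrated arrays, 7.46, 7.61 and 8.57 on estradiol arrays, 9.23, 8.62 and 9.48 on combined arrays, and 8.72, 8.16 and 8.38 on control arrays. Combined arrays all lay above the estradiol arrays, with a difference of 1.23 (95% interval 0.41 to 2.06, adjusted p = 0.241), and no comparison passed. Its estradiol difference from control was -0.54, and 0.15 without estradiol arrays 1 and 2. Serpinh1, which helps collagen to fold, averaged 7.25 ± 0.31, 7.08 ± 1.003 and 7.34 ± 0.35 in castrated, estradiol-treated and combined animals, against 7.52 ± 0.22 in controls (SD, n = 3).

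The 4 serpins described here that inhibit plasmin or its activators were dim. Serpine2 (protease nexin-1), which blocks urokinase, thrombin and plasmin, was at 5.38, 5.35 and 5.93 on castrated arrays, against 5.25, 5.24 and 4.80 on control arrays. Its castrated difference was 0.45 ± 0.26 (adjusted p = 0.453), and the estradiol and combined differences were 0.27 and 0.20. Serpinb2, an inhibitor of urokinase, lay between 2.25 and 3.03 on all 12 arrays. Serpinf2, the main inhibitor of plasmin in plasma, had differences of 0.00 (castrated), 0.23 (estradiol) and 0.17 (combined), and Serpina5, an inhibitor of activated protein C and urokinase, of -0.08, 0.41 and -0.04. None of them passed. With estradiol arrays 1 and 2 left out, the estradiol differences were 0.0094 for Serpine2, -0.0986 for Serpinf2 and 0.10 for Serpina5.

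The 13 serpins of clade A, many of them plasma proteins made by liver, held no gene that passed. Their median log2 difference from control was -0.04 in castrated, 0.41 in estradiol-treated and 0.07 in combined animals, with 7 at an unadjusted p under 0.05 for estradiol (30.2% of all genes) and 0 for the other treatments (16.1% of all genes in castrated and 14.7% in combined animals). The estradiol median was -0.0058 without estradiol arrays 1 and 2, with 7 of 13 below 0 and 0 at an unadjusted p under 0.05. Serpina3c, for example, was at 5.52, 5.72 and 4.64 on estradiol arrays, against 4.14, 4.62 and 4.62 on control arrays. Its estradiol difference was 0.83 ± 0.25 (adjusted p = 0.0590), and 0.18 without estradiol arrays 1 and 2. Serpina1, the inhibitor of neutrophil elastase, differed by 0.44 ± 0.16 under estradiol (adjusted p = 0.0994), Serpina4, an inhibitor of tissue kallikrein, by 0.36 ± 0.16 (adjusted p = 0.160), and the acute-phase serpin Serpina3n by -0.40 ± 0.33 (adjusted p = 0.397). These were 0.21, -0.0058 and -0.31 without estradiol arrays 1 and 2.

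**Figure D4:**
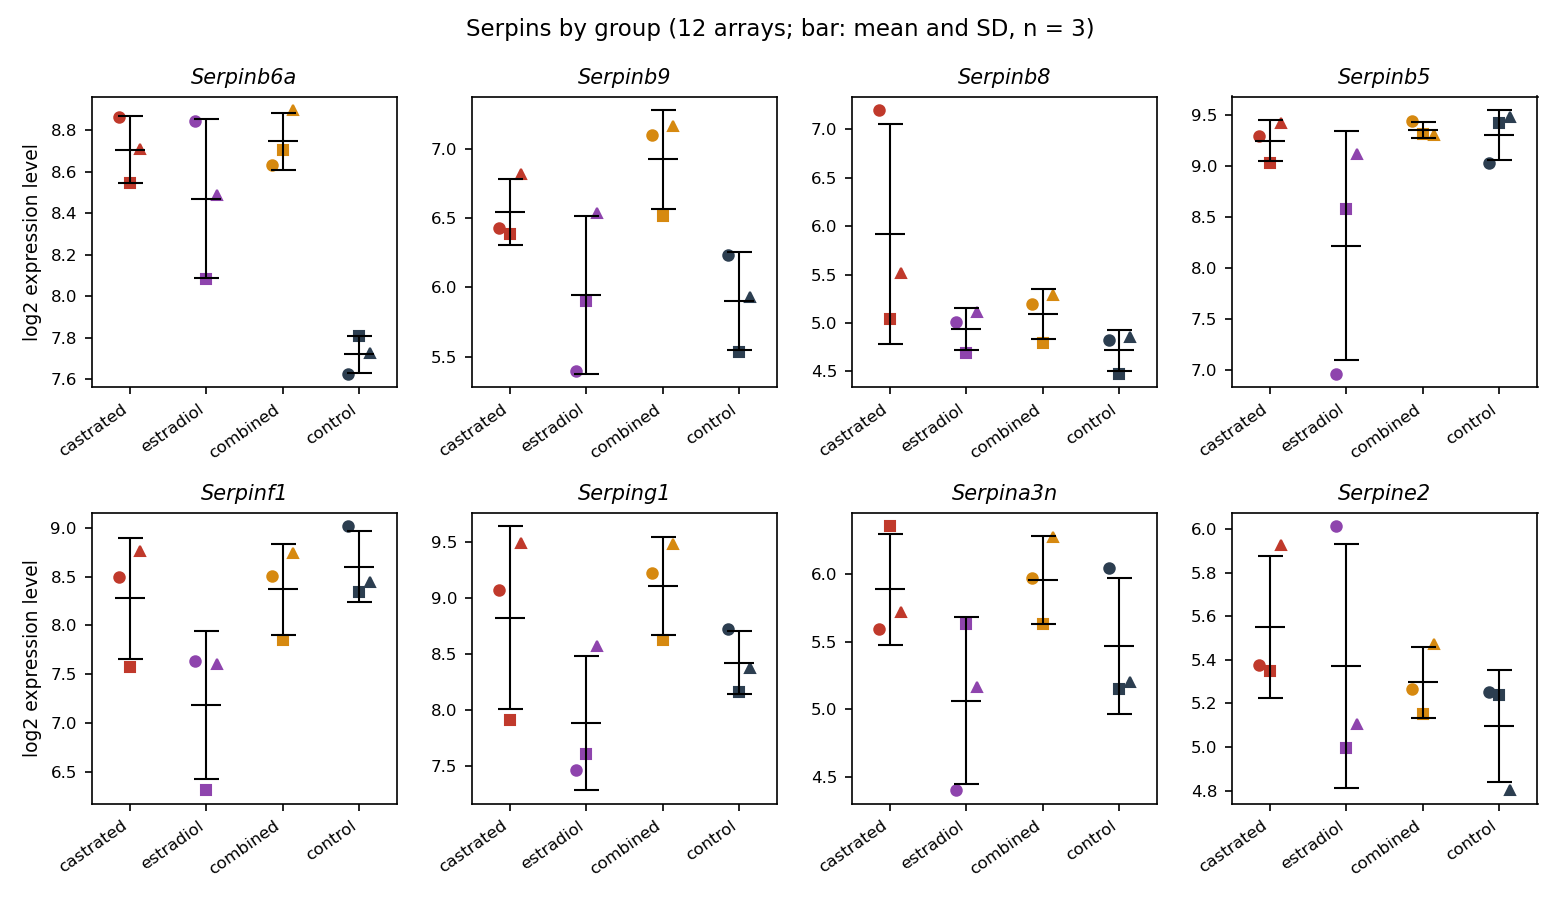
Log2 level of 8 serpins (panels, each with its own vertical scale) by group, 1 point per array with circle, square and triangle for arrays 1, 2 and 3, and the mean and SD of 3 arrays as bars. Serpinb6a separates all treated arrays from controls, castrated array 1 stands alone in Serpinb8 at 7.20, and estradiol arrays 1 and 2 are the lowest in Serpinb5.

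Most kallikreins did not pass in any comparison. All 10 genes of the Klk1 subfamily were lower on average than controls in castrated animals (median log2 difference -0.46) and in combined animals (median -0.37), and 8 of 10 in estradiol-treated animals (median -0.42). The arrays lay below all controls without overlap for 7 of 10 in castrated animals, where 13.7% of all genes did so, and for 6 of 10 in combined animals, where 15.8% did. The test passed 2 of these 10 in castrated, 0 in estradiol-treated and 1 in combined animals. The 9 other kallikreins had medians of -0.01, 0.26 and 0.11, and 1 passed (Klk4, estradiol). Without estradiol arrays 1 and 2 the estradiol median was -0.22 for the Klk1 subfamily, with 10 of 10 below the control mean and 1 passing (Klk1c12), and 0.075 for the other kallikreins, with 0 passing. The difference between both subfamilies was not tested.

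These genes sit beside each other. In the RefSeq gene table (GRCr8) 18 of the 19 kallikreins lie on chromosome 1, and Klkb1, plasma kallikrein, lies on chromosome 16. The promoters of 9 of the 10 Klk1 genes were 81.3% to 93.3% identical in 36 pairs (median 88.1%), over 214 to 300 aligned bases. Likeness was measured on promoters, and transcripts and probes were not compared. Copies whose transcripts are also alike may share probe signal, so a value of 1 Klk1 gene is uncertain as that gene's own. For the same reason the 10 genes are not independent observations. Their mean levels ran from 3.94 to 12.87.

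Promoters of the called members and of a bright copy are shown to let the likeness be seen. Each is the 250 bases before the gene's start, from RefSeq, build GRCr8, with the 13 bases that all 9 promoters share in capitals. Klk1c12 lies at chr1:103518677-103518926 (minus strand), Klk1b3 at chr1:103845397-103845646 (plus strand) and Klk1c8 at chr1:103684043-103684292 (plus strand).
Klk1c12: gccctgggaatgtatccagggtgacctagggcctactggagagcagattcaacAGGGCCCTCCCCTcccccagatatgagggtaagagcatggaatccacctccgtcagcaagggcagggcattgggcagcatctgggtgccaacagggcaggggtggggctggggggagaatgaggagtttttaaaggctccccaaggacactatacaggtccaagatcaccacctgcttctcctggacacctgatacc
Klk1b3: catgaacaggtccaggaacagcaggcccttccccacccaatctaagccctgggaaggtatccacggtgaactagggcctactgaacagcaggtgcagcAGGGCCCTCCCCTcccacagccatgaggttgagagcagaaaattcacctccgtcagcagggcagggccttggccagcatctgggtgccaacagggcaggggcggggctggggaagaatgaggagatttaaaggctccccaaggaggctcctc
Klk1c8: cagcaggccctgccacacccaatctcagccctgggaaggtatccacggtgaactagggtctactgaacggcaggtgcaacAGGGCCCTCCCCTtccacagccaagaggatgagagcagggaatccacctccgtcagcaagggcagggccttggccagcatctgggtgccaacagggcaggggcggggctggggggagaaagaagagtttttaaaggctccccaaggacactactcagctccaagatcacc

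The shared run occurs in 14 of 33469 promoters, searched over 300 bases. Members were again counted by gene and all promoters by sequence. Among the 48 members, searched on both strands of 250 bases, the TATA-like letters TTTAAA occurred in 16, 8 of them Klk1 genes, and in 12.3% of all promoters. The letters of a full androgen response element (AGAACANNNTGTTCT) occurred in 0 members and in 0.0120% of all promoters, and those of an oestrogen response element (GGTCANNNTGACC) in 0 members and 0.0239%. The single arm AGAACA occurred in 6 members and in 17.5% of all promoters, and 0 of the 6 were Klk1 genes. The AP-1 letters TGANTCA occurred in 8 members, Plaur among them, and in 6.34% of all promoters. These counts say which letters are in this window.

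Klk1c12 fell in castrated and in combined animals. Its log2 level was 3.73, 3.45 and 3.59 on castrated arrays, 5.13, 4.23 and 3.71 on estradiol arrays, 3.48, 3.63 and 3.38 on combined arrays, and 4.45, 5.31 and 5.61 on control arrays. The castrated and combined arrays all lay below the lowest control, and the estradiol arrays spread across both levels. The differences were -1.53 ± 0.33 in castrated (2.90-fold lower, adjusted p = 0.0139), -0.76 ± 0.33 in estradiol-treated (adjusted p = 0.139) and -1.63 ± 0.33 in combined animals (3.09-fold lower, adjusted p = 0.0114).

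The 2 falls of Klk1c12 passed under 16 of 20 alternatives each. The castrated call was lost without castrated array 2 or 3 (adjusted p = 0.0560 and 0.0503) and without control array 2 or 3 (0.0735 and 0.0781). The combined call was lost without combined array 1 or 3 (0.0512 and 0.0624) and without control array 2 or 3 (0.0666 and 0.0669). For estradiol the gene passed without estradiol array 1 (-1.15, adjusted p = 0.0219) and without estradiol arrays 1 and 2 (-1.41, adjusted p = 0.0347).

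Klk1b3, listed in the gene table also as Ngfg, the gamma subunit of nerve growth factor, fell in castrated animals. It was at 5.96, 5.10 and 5.62 on castrated arrays, 5.82, 5.93 and 6.27 on estradiol arrays, 5.74, 6.22 and 6.10 on combined arrays, and 6.20, 6.53 and 6.50 on control arrays. The castrated arrays lay below all controls, with a difference of -0.85 ± 0.22 (1.80-fold lower, adjusted p = 0.0393), and the differences of -0.40 under estradiol (-0.14 without estradiol arrays 1 and 2) and -0.39 under the combined treatment did not pass. The call held under 12 of 20 alternatives. It was lost without castrated array 2 (-0.62, adjusted p = 0.147) or 3 (0.102), without combined array 2 or 3 (0.0525 and 0.0611), without control array 1, 2 or 3 (0.0637, 0.167 and 0.149) and with array medians centred (0.0545). Combined and castrated animals differed by 0.46 (95% interval -0.02 to 0.94).

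Klk1c9 and Klk1c8 were the brightest of all 59 genes. Klk1c9 was at 13.07, 12.62 and 12.72 on castrated arrays, 11.87, 12.71 and 12.98 on estradiol arrays, 12.76, 12.95 and 12.98 on combined arrays, and 13.23, 13.23 and 13.30 on control arrays. All treated arrays lay below all controls. The differences were -0.45, -0.73 and -0.36 in castrated, estradiol-treated and combined animals (adjusted p = 0.397, 0.0686 and 0.615), and the estradiol one was -0.28 without estradiol arrays 1 and 2. Klk1c8 was at 12.58, 11.63 and 12.23 on castrated arrays, 10.61, 12.28 and 12.52 on estradiol arrays, 12.18, 12.37 and 12.52 on combined arrays, and 12.26, 12.55 and 12.78 on control arrays. Its groups overlapped, and its differences of -0.39, -0.72 and -0.17 did not pass. Its estradiol difference was -0.0056 without estradiol arrays 1 and 2.

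Klk1, tissue kallikrein, which releases kinins from kininogen, was at 6.87, 6.34 and 6.88 on castrated arrays, 6.13, 7.29 and 7.11 on estradiol arrays, 6.81, 6.94 and 6.83 on combined arrays, and 7.21, 7.31 and 7.40 on control arrays. Castrated and combined arrays lay below all controls, with differences of -0.61 ± 0.25 (adjusted p = 0.236) and -0.45 ± 0.25 (adjusted p = 0.503). Its estradiol difference was -0.46, and -0.196 without estradiol arrays 1 and 2. Without estradiol arrays 1 and 2, 3 more Klk1 genes passed as lower in castrated animals: Klk1 (adjusted p = 0.0133), Klk1c6 (-0.47, 0.0144) and Klk1c9 (-0.45, 0.0306). In that fit 8 of 59 members passed in castrated animals, against 16.6% of all genes.

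Klk1c2 (tonin, a rat enzyme that can form angiotensin) went with estradiol arrays 1 and 2. It was at 5.28, 5.25 and 4.12 on estradiol arrays, against 4.22, 4.26 and 4.30 on control arrays, and its estradiol difference of 0.62 (adjusted p = 0.124) was -0.14 without those 2 arrays. Within the castrated group, array 2 was the lowest in all 10 Klk1 genes. Its median over the 10, relative to the control mean, was -0.77, against -0.42 and -0.44 on castrated arrays 1 and 3. Control array 1 was below the control mean in all 10.

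Klk1c10 was read by 3 probe sets. Its castrated mean was below its control mean in all 3, at 4.79, 4.21 and 4.11 in castrated animals against 5.23, 4.38 and 4.30 in controls. Its estradiol mean was above the control mean in all 3, at 5.42, 4.68 and 4.45 in estradiol-treated animals. That direction came from estradiol arrays 1 and 2: estradiol array 3 was at 4.88, 4.03 and 3.96, below the control mean in all 3.

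Klk4, known in human prostate and in tooth enamel formation, rose in estradiol-treated animals. It was at 5.88, 5.95 and 5.29 on estradiol arrays, against 4.86, 4.98 and 5.09 on control arrays, with no overlap, and at 4.96 to 5.09 on castrated arrays and 4.93 to 5.39 on combined arrays. The estradiol difference was 0.73 ± 0.19 (1.66-fold, adjusted p = 0.0344). It passed under 10 of 20 alternatives and was 0.31 without estradiol arrays 1 and 2 (adjusted p = 0.426).

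The call for Klk4 was also lost without estradiol array 1 or 2 alone (adjusted p = 0.0588 and 0.0849), without control array 1, 2 or 3 (0.125, 0.110 and 0.0794), without castrated array 1 or 3 (0.0515 and 0.0518), without combined array 3 (0.0543) and with the estradiol and control arrays alone (0.177). Klk4 is dim, and the mean of all dim members was raised on the same 2 arrays.

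**Figure D5:**
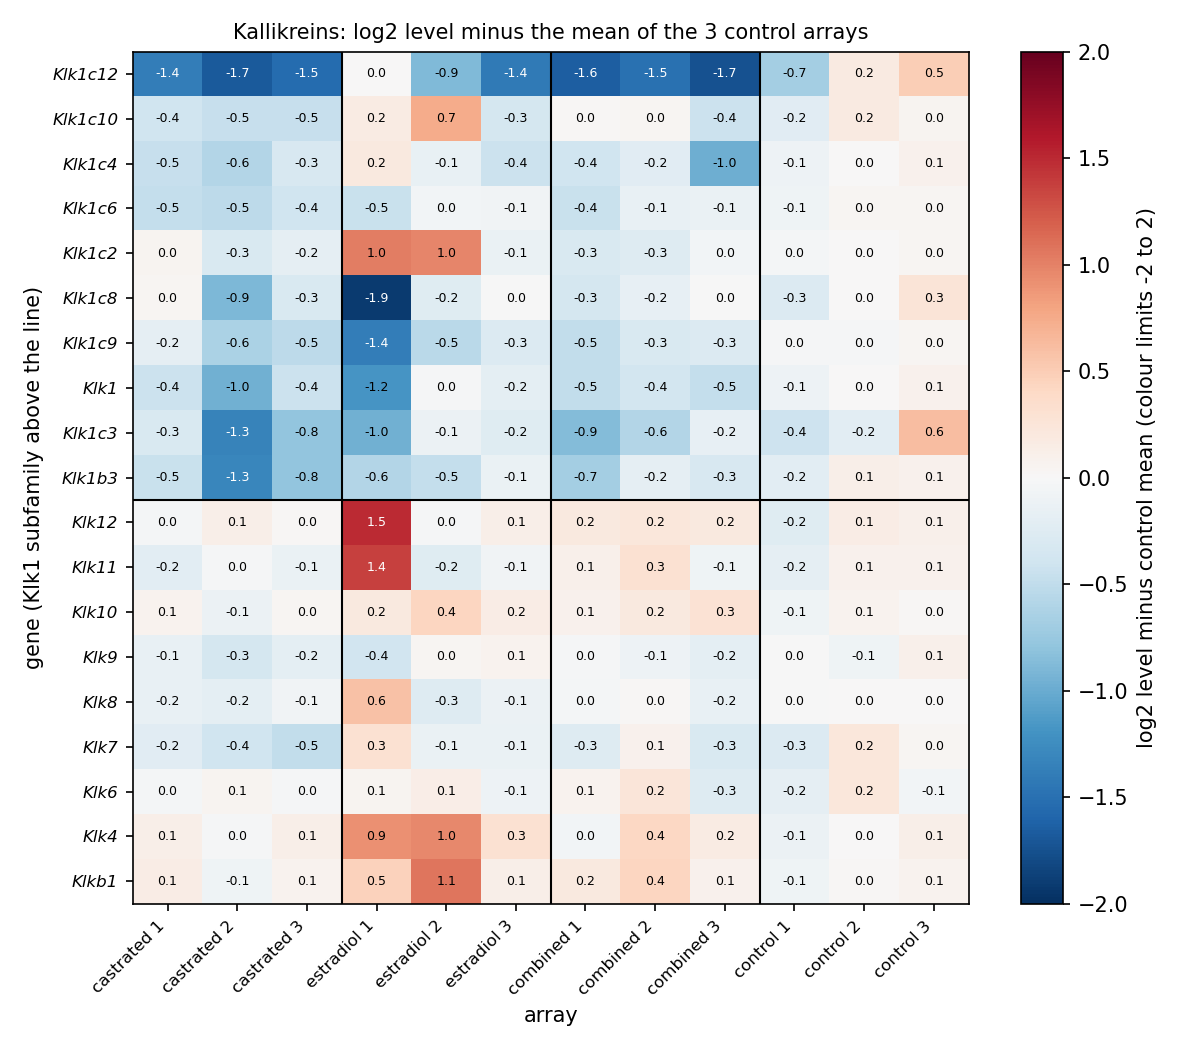
Log2 level of each kallikrein (rows, the Klk1 subfamily above the line) minus the mean of the 3 control arrays, on each array (columns), with the value printed in each cell and the colour scale limited to -2 to 2. Castrated and combined columns are mostly blue above the line and near 0 below it, and single cells of estradiol arrays 1 and 2 go in both directions.

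Between treatments nothing passed. In combined against castrated, combined against estradiol, and estradiol against castrated animals 0 of 59 genes passed, with 0.00% of all genes passing in each, and the members with an unadjusted p under 0.05 numbered 0, 18 and 21, against 1.05%, 18.9% and 27.3% of all genes. Without estradiol array 3 the members that passed numbered 0, 21 and 24, against 28.6% of all genes for combined against estradiol and 37.3% for estradiol against castrated. In the interaction 0 members passed, against 1.10% of all genes, with 7 at an unadjusted p under 0.05 (14.2% of all genes), and 8 passed without estradiol array 3 (11.6% of all genes). The Klk1 subfamily had a median interaction of 0.65, with 9 of 10 above 0, beside a median of -0.06 over all genes. These were 0.36, 10 of 10 and 0.002 without estradiol arrays 1 and 2. A missed threshold does not show that treatments acted alike: combined minus castrated was -0.09 for Klk1c12, with a 95% interval from -0.80 to 0.61.

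Genes that work beside the activators changed in part. The 19 measured partners were mainly genes that bind, hold or clear plasminogen and its activators. They also included clotting genes and receptors that proteases cut, F2rl1 among them. Of the 19, 2 rose and 1 fell in castrated animals, 2 fell in estradiol-treated animals, and 2 rose and 1 fell in combined animals. For this list and those that follow, the shares of all genes that passed were 5.54%, 7.99% and 4.32% in these comparisons. Anxa2, a cell-surface receptor for plasminogen and tissue activator, averaged 9.48 ± 0.20 in castrated, 8.60 ± 0.40 in estradiol-treated and 9.53 ± 0.59 in combined animals, against 7.76 ± 0.28 in controls (SD, n = 3). It rose 3.28-fold in castrated (adjusted p = 0.00260) and 3.41-fold in combined animals (adjusted p = 0.00236). S100a10, its partner in that receptor, fell in all 3, by 1.11, 1.62 and 1.10 on the log2 scale (adjusted p = 0.00129, 9.44e-05 and 0.00145).

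S100a10 was also the partner that passed for the interaction (1.63, adjusted p = 0.00394). F2rl1, a receptor that serine proteases cut to activate, rose in castrated (0.75, adjusted p = 0.0283) and combined animals (0.92, adjusted p = 0.0109). Vldlr, which clears complexes of urokinase with serpins, fell in estradiol-treated animals (-1.06, adjusted p = 0.00309). Both estradiol falls passed without estradiol arrays 1 and 2, at -1.43 for S100a10 and -0.76 for Vldlr (adjusted p = 0.000987 and 0.0359). Median differences over the 19 were 0.06, -0.03 and 0.11 for castrated, estradiol and combined, beside 0.01, 0.07 and 0.04 over all genes.

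Of 15 measured kinin and clotting genes, Pros1, protein S, an anticoagulant cofactor, fell in all 3 treatments (-1.02, -1.15 and -1.15, adjusted p = 0.0205, 0.0102 and 0.0117). Kng2l1, a kininogen, rose in combined animals (1.73, adjusted p = 0.0236). Of 13 genes of epithelial serine proteases and the growth factor system they activate, 2 rose in castrated, 1 in estradiol-treated and 2 in combined animals, and none fell. Met, the receptor of hepatocyte growth factor, rose in all 3 (2.16, 1.27 and 2.03, adjusted p = 0.000444, 0.0152 and 0.000789), and Spint1, which inhibits the activator of that factor, rose in castrated (0.83, adjusted p = 0.0449) and combined animals (0.92, adjusted p = 0.0327). Of 16 immune-cell proteases that serpins can inhibit and related enzymes, Ctss rose in castrated animals (1.53, adjusted p = 0.00809). Cpa3 fell in estradiol-treated animals (-1.19, adjusted p = 0.0350). In combined animals 0 of the 16 passed and 2 had an unadjusted p under 0.05, as did 14.7% of all genes. Without estradiol arrays 1 and 2 the estradiol calls of Pros1 (-0.59, adjusted p = 0.0583), Met (1.37, 0.0625) and Cpa3 (-0.78, 0.379) were lost, and Ctss passed (1.24, 0.0236).

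Cell-type markers moved in the same animals. In bulk tissue, fewer cells of a type and less RNA per cell cannot be told apart. Of 20 macrophage markers, 13 rose in castrated, 5 in estradiol-treated and 9 in combined animals, and none fell. Their mean level was 7.96 to 8.63 on castrated arrays, 7.22 to 8.22 on estradiol arrays and 7.77 to 8.23 on combined arrays, against 6.62 to 7.05 on control arrays. Gpnmb (3.26, 2.75 and 3.23) and Mmp12 (3.23, 2.36 and 3.28) rose in all 3. Without estradiol arrays 1 and 2, 12 macrophage markers rose for estradiol. Macrophages express Plau, Plaur and clade B serpins, and their part in the rises of Plau and Serpinb6a was not tested.

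Of 13 luminal epithelial markers, 7 rose in castrated, 5 rose and 1 fell in estradiol-treated, and 8 rose in combined animals. Their mean was 9.90 to 10.19 on castrated arrays, 9.66 to 9.80 on estradiol arrays and 9.87 to 10.13 on combined arrays, against 9.23 to 9.33 on control arrays. Their median estradiol difference was 0.53, and 0.57 without estradiol arrays 1 and 2. Hoxb13, the marker that fell, was at -0.86 and -0.47 in the same fits. Secretory products of the prostate gave 6 measured genes, whose mean was 10.20 to 10.58 on castrated, 9.99 to 11.15 on estradiol and 10.57 to 10.84 on combined arrays against 11.50 to 11.58 on control arrays. Of these, 1 rose and 2 fell in castrated, 2 fell in estradiol-treated, and 1 rose and 1 fell in combined animals. Azgp1 was the gene that rose, averaging 8.52 in castrated and 8.08 in combined animals against 6.09 in controls. The median log2 differences over the 6 were -0.32, -0.43 and -0.29 in castrated, estradiol-treated and combined animals. In each, 5 of 6 were below 0. The estradiol median was -0.26 without estradiol arrays 1 and 2. The lower means rested largely on Pbsn. Pbsn, probasin, is an androgen-driven product of the rat prostate. It was at 4.96, 4.37 and 4.54 on castrated arrays, 6.28, 4.82 and 9.71 on estradiol arrays, 5.31, 7.45 and 4.88 on combined arrays, and 10.50, 11.47 and 11.63 on control arrays. The 2 estradiol falls in this list were those of Pbsn (-4.26) and Andpro (-1.82). Without estradiol arrays 1 and 2 these differences were -1.49 and -1.13. The high Pbsn value of estradiol array 3 stood beside the Semg1 and Msmb signal of the same array. The part of these shifts in the Klk1 levels was not tested.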

How the data were processed

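Total RNA (500 ng) from 30 mg of ventral prostate was made into biotin-labelled cDNA and run on Affymetrix arrays, per the labels' protocols. Affymetrix Expression Console made the values, per the submitters' processing notes. The deposited values, 1 per probe set and array, were read as log2 levels from their range (array medians 5.53 to 5.76). Neither the normalization nor the build is given in the sources used here, and the base of the log was not stated.

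Of 29214 probe sets, 15310 had 1 gene symbol, 323 several and 13581 none, and those without a single symbol were left out. The probe set with the highest mean was kept per gene, which left 14506 genes. All 59 members matched the RefSeq gene table by gene ID. Testing used limma 3.58.1 under R 4.3.3 (functions lmFit and eBayes, 2-sided, Benjamini-Hochberg over all genes, threshold 0.05), with 8 residual and 5.29 prior degrees of freedom, and each adjusted p in the text comes from limma. "Rose" and "fell" mean passed.

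Named members were those that passed anywhere and a fixed list of well-known members. From each partner list up to 4 genes that passed with the largest differences were named. From the marker lists Gpnmb, Mmp12, Azgp1, Pbsn, Andpro and Hoxb13 were named, and other markers that passed were not. Serpinb1a, Serpinb8, Serpina3c, Klk1c6, Klk1c9, Klk1c10, Klkb1, Serpinb13, Serpina3m, Serpina9, Serpina16, Semg1 and Msmb were named outside this rule, after their values were seen. The members and lists were chosen with earlier results of these data known.

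Tested on simulated data for castrated against control, the fit found 10%, 74%, 94% and 98% of 50 genes each raised or lowered 1.5-, 2-, 4- and 8-fold among 14506, and called 0.00699% of the rest. The simulated noise was drawn independently for each gene, scaled to the spread of each gene and array. It held no shift shared by many genes of an array, such as that on estradiol arrays 1 and 2. The rates therefore need not hold for these arrays. Promoters were read from RefSeq tables (GRCr8), and plotting used matplotlib 3.10.9 (Python 3.11.15).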

Additional observations from a re-analysis of the deposited data

How the results depend on the processing

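Single-gene results against control were followed only where the main fit passed them or gave an unadjusted p under 0.05. That choice favours kept signs. Most of these results had not passed, so keeping the side of the threshold often meant staying unpassed. Under alternative settings 666 kept their direction and side of the threshold, 64 came to pass, 41 no longer passed and 5 changed sign. The sign changes all came without estradiol arrays 1 and 2, for estradiol against control: Klk1c2 -0.14, Serpina16 -0.026, Serpina3m -0.18, Serpina4 -0.0058 and Serpina9 -0.0865. Without those arrays 8 members passed in castrated and 5 in combined animals (16.6% and 14.5% of all genes). With array quality weights 33 members passed in the F test (46.2% of all genes), 19 in castrated (26.1%), 11 in estradiol-treated (15.9%) and 17 in combined animals (28.5%), 3 in combined against estradiol (3.37%), 12 in estradiol against castrated (11.2%) and 4 in the interaction (7.25%). With only the arrays compared, 8, 0 and 8 passed in castrated, estradiol-treated and combined animals (12.9%, 1.36% and 19.8% of all genes), and with only genes above the median level 2 passed in castrated animals (9.86% of those genes). Leaving out 1 array in turn gave 0 to 28 members in the F test, 2 to 7 in castrated, 0 to 20 in estradiol-treated and 2 to 5 in combined animals, 0 to 0 in combined against castrated, 0 to 21 in combined against estradiol, 0 to 24 in estradiol against castrated and 0 to 8 in the interaction. The shares of all genes over the same omissions were 1.59% to 34.1% in the F test, 2.49% to 12.3% in castrated, 2.69% to 36.7% in estradiol-treated and 1.83% to 10.2% in combined animals. The cause was not tested. Centring array medians moved the median estradiol difference of all genes to -0.05, against 0.07 as deposited.

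Deviations of same-numbered arrays from different groups correlated at -0.156 to 0.284 (median 0.0725, 18 pairs). Those of differently numbered arrays correlated at -0.248 to 0.285 (median -0.025, 36 pairs). These ranges overlap and do not decide whether replicate numbers pair the samples. With the replicate number as a block 5 members passed in the F test (5.6% of all genes), 4 in castrated (5.69%), 4 in estradiol-treated (8.65%) and 4 in combined animals (4.49%), 1 in the interaction (1.03%) and 0 in the other comparisons.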
